A study of Mus musculus with 29 samples.

Results

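Cdkn1a, Mdm2, Plk2, Phlda3, Ccng1, Trp53inp1, Sesn2, Gdf15 and Btg2 are transcriptional targets of p53, and their signal was followed in podocytes sorted from mouse kidney on 4 days around a toxin injection. The 9 genes were found through the RefSeq accession of each array probe. They make up 9 of the 15626 genes tested, and 11 of the 20448 named probes that passed the filter on dim probes belong to them. In sorted podocytes carrying TdTomato, Cdkn1a, Plk2 and Phlda3 rose above day 0 on day 1, day 4 and day 7, while Gdf15 passed the test on day 4. Trp53inp1 fell on day 1 and day 4, Ccng1 and Sesn2 fell on day 1, Btg2 fell on day 4, and Mdm2 did not pass the test on any day. In podocytes carrying EGFP no member passed the test on day 1, Phlda3 alone passed it on day 4, and Plk2, Phlda3 and Cdkn1a were higher on day 7. Few of all genes passed in these cells, 0.0256% on day 1 and 0.557% as higher on day 4, with 5.34% higher on day 7. The EGFP calls of Phlda3 on day 4 and Cdkn1a on day 7 were lost under 11 and 9 of 18 alternative settings. The TdTomato call of Sesn2 was lost under 5 of 18.

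The transcription factor p53, encoded by Trp53, is kept low in unstressed cells by Mdm2, the ubiquitin ligase that marks it for degradation. DNA damage, ribosomal stress and other insults stabilise p53, which then binds paired decamer elements in its target genes and raises their transcription. The targets halt the cell cycle, restrain growth signalling, feed back on p53 itself or start cell death. Podocytes are the terminally differentiated cells that cover the outside of the glomerular capillary, and cyclin-dependent kinase inhibitors such as the product of Cdkn1a are known for holding them out of the cell cycle.

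The samples were 29 arrays of RNA from 16 male C57BL/6J mice of the strain Pod-hCD25T/G, aged 8 weeks. Treatment was heminephrectomy and then an injection of LMB2, an immunotoxin against human CD25, at 25 ng per g of body weight. Day 0 cells were taken before the injection and the others 1, 4 or 7 days after it. By the design of this strain as it is known, and not from the labels, the podocytes with human CD25 are TdTomato-positive and those without it are EGFP-positive. There were 4 mice a day, and 13 of the 16 gave an array of each population. The EGFP groups hold 4, 3, 4 and 4 arrays on days 0, 1, 4 and 7, and the TdTomato groups hold 4, 4, 4 and 2. The sources used here do not say whether the day 0 mice had been heminephrectomised.

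The sequence before the transcription start was read from RefSeq promoters for 8 of the 9 members, at 10 starts, as the 250 bases that precede each start. Those of Cdkn1a, Ccng1 and Mdm2 are shown because they hold a match to the p53 decamer, and those of Plk2 and Phlda3 because these genes rose together with Cdkn1a. All are written 5′ to 3′ on the gene's own strand. Capitals mark a match to the p53 decamer, a pair of such decamers side by side with at most 1 mismatch, or the cAMP response element TGACGTCA.
Cdkn1a, first start, GRCm38.p6 chr17:29090729-29090978, plus strand: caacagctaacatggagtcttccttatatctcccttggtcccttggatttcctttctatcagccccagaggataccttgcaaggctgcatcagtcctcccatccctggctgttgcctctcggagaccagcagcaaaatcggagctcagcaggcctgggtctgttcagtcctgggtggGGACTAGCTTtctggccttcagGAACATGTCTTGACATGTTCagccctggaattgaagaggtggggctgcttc
Cdkn1a, second start, GRCm38.p6 chr17:29093519-29093768, plus strand: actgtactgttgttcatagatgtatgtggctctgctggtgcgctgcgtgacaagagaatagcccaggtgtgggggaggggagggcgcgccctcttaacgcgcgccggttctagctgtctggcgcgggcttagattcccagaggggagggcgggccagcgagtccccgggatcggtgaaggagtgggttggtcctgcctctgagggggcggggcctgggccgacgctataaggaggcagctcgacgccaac
Ccng1, GRCm38.p6 chr11:40755287-40755536, minus strand: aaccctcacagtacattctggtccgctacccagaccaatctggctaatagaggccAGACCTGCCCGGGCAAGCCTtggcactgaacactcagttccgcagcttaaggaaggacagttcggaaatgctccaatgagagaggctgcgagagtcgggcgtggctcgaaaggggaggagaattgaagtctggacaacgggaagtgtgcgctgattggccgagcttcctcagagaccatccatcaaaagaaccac
Mdm2, GRCm38.p6 chr10:117710759-117711008, minus strand: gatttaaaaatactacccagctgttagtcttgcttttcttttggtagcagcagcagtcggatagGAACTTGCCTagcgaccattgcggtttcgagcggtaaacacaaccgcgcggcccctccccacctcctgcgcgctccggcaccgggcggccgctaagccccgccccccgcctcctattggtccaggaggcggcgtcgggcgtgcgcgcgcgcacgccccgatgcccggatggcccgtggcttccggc
Plk2, GRCm38.p6 chr13:110394794-110395043, plus strand: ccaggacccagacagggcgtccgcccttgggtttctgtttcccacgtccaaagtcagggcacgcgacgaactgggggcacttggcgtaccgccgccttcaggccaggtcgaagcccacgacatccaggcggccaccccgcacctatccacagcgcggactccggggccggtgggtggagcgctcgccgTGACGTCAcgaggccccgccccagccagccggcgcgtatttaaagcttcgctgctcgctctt
Phlda3, GRCm38.p6 chr1:135765835-135766084, plus strand: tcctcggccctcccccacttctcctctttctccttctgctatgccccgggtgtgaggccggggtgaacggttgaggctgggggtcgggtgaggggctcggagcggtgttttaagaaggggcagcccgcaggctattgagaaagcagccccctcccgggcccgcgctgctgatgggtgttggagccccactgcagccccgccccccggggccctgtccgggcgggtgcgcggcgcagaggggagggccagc

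At the first start of Cdkn1a the run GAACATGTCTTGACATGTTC, 51 to 32 bases before the start, was a paired p53 site with 1 mismatch. The promoter of Ccng1 held another such run, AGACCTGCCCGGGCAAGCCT, 195 to 176 bases before its start. Of all 32851 mouse promoters searched on both strands, 25 (0.0761%) had a paired site with at most 1 mismatch, and 3 (0.00913%) had one without a mismatch, none of them a member's. A single p53 decamer stood in 7.13% of all promoters and in those of Cdkn1a, Ccng1 and Mdm2, where it read GAACTTGCCT. Cdkn1a had a further decamer, GGACTAGCTT, 73 to 64 bases before its first start. The search that allows 1 mismatch was chosen after the sequences had been looked at, and the decamers overlap the paired sites. The cAMP response element TGACGTCA was found in 1.55% of all promoters and in those of Plk2 and Btg2. A TATA box, TATAAA, was in 12.4% of all promoters and in none of the 10 member promoters, and the C/EBP-ATF element TGATGNAAN was in 3.44% and none. The GC box GGGCGG (32.7% of all) was in the promoters of 6 members, and the CCAAT box, CCAAT (33.8% of all), in those of 5. GC content was 71.2% before Phlda3, 73.2% before Btg2 and 68.4% before Plk2, with a median of 52.4% over all promoters. These matches describe the letters in the windows and do not show binding.

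Each value below is the log2 of a signal after subtraction of its array's 75th percentile, so a gene at 0 is as bright as that percentile. Every probe used for a member stood well above background on all 29 arrays. Between 47.3% and 64.9% of probes per array did so, and no spot was saturated. The signals of different probes depend on their sequence, so levels are compared between samples for 1 gene and not between genes. Of the 29 columns in the authors' deposited table, 27 matched the scanner file of the same sample, and the day 7 EGFP and TdTomato columns of mouse MC221 matched none, so which arrays belong to them is not settled. Day 7 results are therefore also given without both MC221 arrays, which leaves 1 TdTomato array on that day, assumed to vary like the other groups. All 8 podocyte markers tested, among them Nphs1, were above background on every array. In TdTomato cells 5 of them were lower on day 1, 7 on day 4 and 5 on day 7. None of them passed the test in EGFP cells in the fit with all arrays. For Nphs1 in EGFP cells the day 7 result depended on the MC221 arrays, with a change of -0.59 without them. Their summed log2 signal ran from 10.6 to 11.4 in TdTomato cells on day 0 and from 9.79 to 10.355 on day 4. Of 7 myeloid markers, Csf1r and Fcer1g were higher in TdTomato cells on day 1, and the summed signal went from between 5.26 and 5.82 to between 6.39 and 8.05, while Lyz2 and Tyrobp were each above background on 1 of the 4 day 1 arrays. The blood cell marker Itga2b and the parietal marker Cldn1 were also higher in TdTomato cells on day 1. Kdr (endothelial), Pdgfrb (mesangial), Ncam1 (parietal) and Cd3e (lymphocyte) were lower on that day. On day 7 of TdTomato cells 4 of 8 endothelial and 5 of 8 mesangial and smooth muscle markers were higher, with summed signals of 4.74 to 5.55 and 3.11 to 3.88 against 3.29 to 4.13 and 1.75 to 2.63 on day 0. Without both MC221 arrays these day 7 counts were 1 and 4, and 2 podocyte markers were lower. On day 4 of TdTomato cells the mesangial and smooth muscle markers Myh11, Gata3 and Cnn1, the endothelial marker Pecam1, the myeloid marker Fcer1g, the lymphocyte markers Cd79a and Cd79b, the parietal markers Cldn1 and Scin, the distal nephron marker Kcnj1 and the blood cell markers Itga2b and Slc4a1 were higher. Their lists' summed day 4 signals ran from 1.42 to 2.54, 2.50 to 5.04, 5.52 to 6.84, 1.61 to 2.41, 2.47 to 3.004, 0.85 to 3.85 and -0.48 to -0.06, where on day 0 they ran from 1.75 to 2.63, 3.29 to 4.13, 5.26 to 5.82, 1.28 to 2.36, 3.39 to 3.63, 1.18 to 2.35 and -2.76 to -0.43, in the same order. Of these genes Cnn1, Cd79b and Itga2b were above background on 0 of 4 day 0 arrays and on 4 of 4 day 4 arrays. From the same lists Pdgfrb (mesangial), Pax8 and Ncam1 (parietal), Aqp2 (distal nephron) and Nkg7 (lymphocyte) were lower on day 4. The counts higher and lower were 3 and 1 of 8 mesangial markers and 2 and 2 of 7 parietal markers. They were 1 and 1 of 5 in the distal nephron list and 2 and 1 of 5 in the lymphocyte list. In the endothelial, myeloid and blood cell lists 1 of 8, 1 of 7 and 2 of 4 were higher and none lower. Cd79a, Cd79b and Itga2b were higher on day 7 as well. In EGFP cells 3 of the mesangial and smooth muscle markers were higher on day 7. Of 8 proximal tubule markers only Cubn was called, higher in TdTomato cells on each day and in EGFP cells on days 4 and 7. The part of these markers in the results below was not tested. In sorted bulk samples fewer cells of a type and less RNA per cell cannot be told apart.

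The comparison of each later day with day 0 asks how each podocyte population responded after the injection. In TdTomato cells on day 1, 3 of the 9 members rose and 3 fell, on a background in which 23.8% of all tested genes rose and 27.9% fell. On day 4, 4 members rose and 2 fell, against 21.4% and 35.9% of all genes. On day 7, 3 members rose and none fell, against 10.9% and 8.47%. That day's background rests on 2 arrays: 3027 genes were called, but 1483 without both MC221 arrays, 1464 without the TdTomato array of MC221 and 1502 without that of MC791. The share of these called genes that were higher was 56.3%, and it was 74.0% without both MC221 arrays, 73.4% and 66.5% without each TdTomato array, 79.9% with only the groups compared, 44.3% with normexp background correction and 45.2% with slide as a block. The members' share of risers was thus 33.3%, 44.4% and 33.3%, and their median log2 change was 0.58, 0.26 and -0.08 where the median over all genes was -0.133, -0.286 and -0.135. In EGFP cells no member passed the test on day 1, when 0.0256% of genes (4) were called in either direction and limma gave 467 genes but no member an unadjusted p under 0.05. On day 4, 1 member rose and none fell, with 0.557% of all genes rising and 0.0384% falling. By day 7, 3 members had risen and none had fallen, against 5.34% and 1.92%. The comparisons within a population share their day 0 arrays, so their values are set side by side and are not independent.

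**Figure D1:**
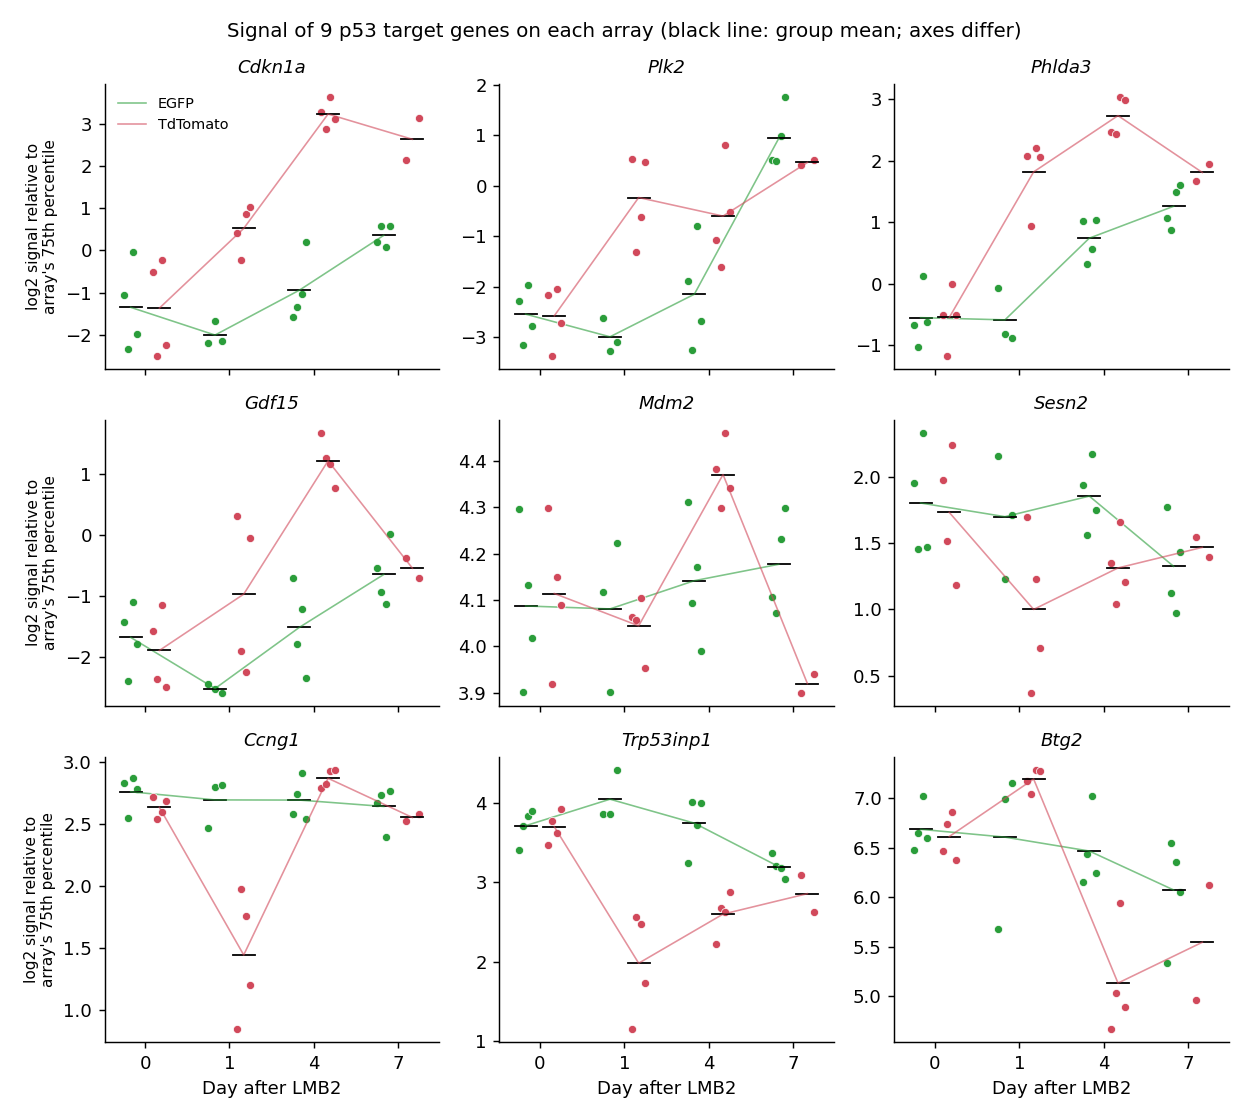
Signal of the 9 members on each of the 29 arrays, 1 panel a gene, with the log2 signal relative to the array's 75th percentile on the vertical axis (its range differs between panels) and the day on the horizontal axis. Green points are EGFP arrays, red points are TdTomato arrays and black lines are group means. The 4 TdTomato points of Cdkn1a on day 4 lie between 2.89 and 3.65, above every other point of that gene except 1 TdTomato array on day 7 at 3.14.

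Cdkn1a encodes p21, the inhibitor of cyclin-dependent kinases through which p53 halts the cell cycle. On day 0 its signal in TdTomato cells was -0.51, -2.51, -0.22 and -2.24 in mice MC122, MC731, MC742 and MC753. On day 1 it was 0.42, -0.22, 0.87 and 1.02 in mice MC125, MC541, MC542 and MC831. On day 4 it stood at 3.28, 2.89, 3.65 and 3.13 in mice MC151, MC692, MC822 and MC823. The lowest day 1 value equalled the highest day 0 value to 2 decimals, and the day 4 values lay far above both. The day 7 arrays read 2.14 in MC221 and 3.14 in MC791. Relative to day 0, Cdkn1a rose by 1.89 ± 0.50 log2 units (SE) on day 1, or 3.72-fold (adjusted p = 0.0024), by 24.4-fold on day 4 (adjusted p = 5.4e-08) and by 16.1-fold on day 7 (adjusted p = 4.4e-05). Without both MC221 arrays the day 7 change was 4.51 in place of 4.01 (adjusted p = 0.00073). The day 1 call was lost when the 2 Cdkn1a probes were averaged (0.76, adjusted p = 0.13), an average that takes in a probe mostly below background.

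In EGFP cells the day 0 values of Cdkn1a were -1.05, -2.35, -0.03 and -1.97 in the same 4 mice. They were -2.20, -1.68 and -2.15 on day 1 in MC125, MC541 and MC542, and -1.59, -1.35, -1.04 and 0.21 on day 4. On day 7 they were 0.19, 0.58, 0.08 and 0.58 in MC221, MC791, MC824 and MC943, above all 4 day 0 arrays. The day 7 rise was 1.71 ± 0.50, or 3.27-fold (adjusted p = 0.036). This call was lost under 9 of 18 alternative settings, with adjusted p from 0.0076 to 0.15. Without both MC221 arrays the change was 1.77 (adjusted p = 0.057), and without day 0 mouse MC731 or MC753 it was 1.38 (adjusted p = 0.15) or 1.50 (adjusted p = 0.12). Leaving out day 7 mouse MC221, MC791, MC824 or MC943 gave adjusted p of 0.055, 0.077, 0.052 and 0.1. The spread on day 0 was shared by mice: MC122 and MC742 exceeded MC731 and MC753 in both populations for Cdkn1a, and likewise for Plk2, Sesn2 and Gdf15.

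Plk2, a polo-like kinase of the stress response that is also induced early by growth signals, rose in both populations. TdTomato values on day 0 were -2.16, -3.38, -2.05 and -2.72. They were 0.52, -1.31, -0.62 and 0.46 on day 1, then -1.07, -1.62, 0.80 and -0.53 on day 4, and 0.40 and 0.51 on day 7. Every later TdTomato array was above every day 0 array. The rises were 5.07-fold on day 1 (2.34 ± 0.52, adjusted p = 0.00046), 3.93-fold on day 4 (1.97, adjusted p = 0.0024) and 8.19-fold on day 7 (3.03 ± 0.63, adjusted p = 0.0014). EGFP values for Plk2 were -2.29, -3.15, -1.97 and -2.77 on day 0, -2.61, -3.28 and -3.09 on day 1, and -1.88, -3.25, -0.79 and -2.67 on day 4. They reached 0.51, 0.48, 0.98 and 1.76 on day 7, clear of all earlier EGFP arrays, which is 11.1-fold above day 0 (3.48 ± 0.52, adjusted p = 5.3e-05). Without both MC221 arrays the day 7 changes were 3.09 in TdTomato cells (adjusted p = 0.022) and 3.62 in EGFP cells (adjusted p = 0.00023). Normexp background correction, which adds an offset and so shrinks changes of dim probes, kept the Plk2 calls at smaller sizes of 1.30, 1.02 and 1.77 in TdTomato cells and 2.32 in EGFP cells.

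Phlda3 encodes a pleckstrin-homology protein that blocks membrane binding of the kinase Akt. Its TdTomato values were -0.51, -1.18, -0.00 and -0.51 on day 0 and 2.08, 0.94, 2.20 and 2.05 on day 1. They were 2.47, 2.44, 3.04 and 2.99 on day 4 and 1.66 and 1.95 on day 7. Day 0 did not overlap with any later day, and the lowest day 1 array, MC541, also had the lowest day 1 signal of Plk2 and Cdkn1a. Phlda3 rose 5.17-fold on day 1 (2.37 ± 0.30, adjusted p = 4.4e-07), 9.76-fold on day 4 (3.29, adjusted p = 3.4e-09) and 5.14-fold on day 7 (2.36 ± 0.37, adjusted p = 5.8e-05). In EGFP cells it read -0.67, -1.04, 0.12 and -0.63 on day 0 and -0.07, -0.82 and -0.89 on day 1. The day 4 EGFP values were 1.03, 0.32, 0.57 and 1.04, and those of day 7 were 1.07, 0.88, 1.49 and 1.60, so both days lay above day 0. The EGFP rise was 1.29 ± 0.30 on day 4 (2.45-fold, adjusted p = 0.044) and 1.81 ± 0.30 on day 7 (3.52-fold, adjusted p = 0.00021). The day 4 call was lost under 11 of 18 alternatives, with adjusted p from 0.004 to 0.24. Among them, normexp gave 1.00 (adjusted p = 0.084) and the fit with the mouse as a random replicate block gave an adjusted p of 0.051. It was also lost without day 0 mouse MC122, MC731 or MC753, and without day 4 mouse MC151, MC822 or MC823. On day 7 the EGFP change without both MC221 arrays was 1.88 (adjusted p = 0.00077), and the TdTomato change was 2.51 (adjusted p = 0.0018).

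Gdf15, a secreted member of the TGF-beta superfamily used as a marker of cell stress, rose in TdTomato cells on day 4. Its TdTomato values were -1.58, -2.36, -1.15 and -2.49 on day 0 and 1.67, 1.26, 1.16 and 0.76 on day 4, an 8.61-fold rise (3.11 ± 0.47, adjusted p = 6.3e-06). On day 1 the arrays split, with 0.31 in MC125 and -0.05 in MC831 but -1.91 in MC541 and -2.24 in MC542. That spread left a day 1 difference of 0.92 (adjusted p = 0.1), which passed the test without MC541 (1.24, adjusted p = 0.036) or MC542 (1.35, adjusted p = 0.017). The 2 day 7 arrays of Gdf15 read -0.38 and -0.71, above all 4 day 0 arrays, and the difference of 1.35 did not pass (adjusted p = 0.1, and 1.18 without both MC221 arrays, adjusted p = 0.38). Day 4 was not tested against the other later days. EGFP values ran from -2.40 to -1.10 on day 0, -2.59 to -2.45 on day 1, -2.35 to -0.71 on day 4 and -1.13 to 0.02 on day 7, and no EGFP comparison passed the test.

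**Figure D2:**
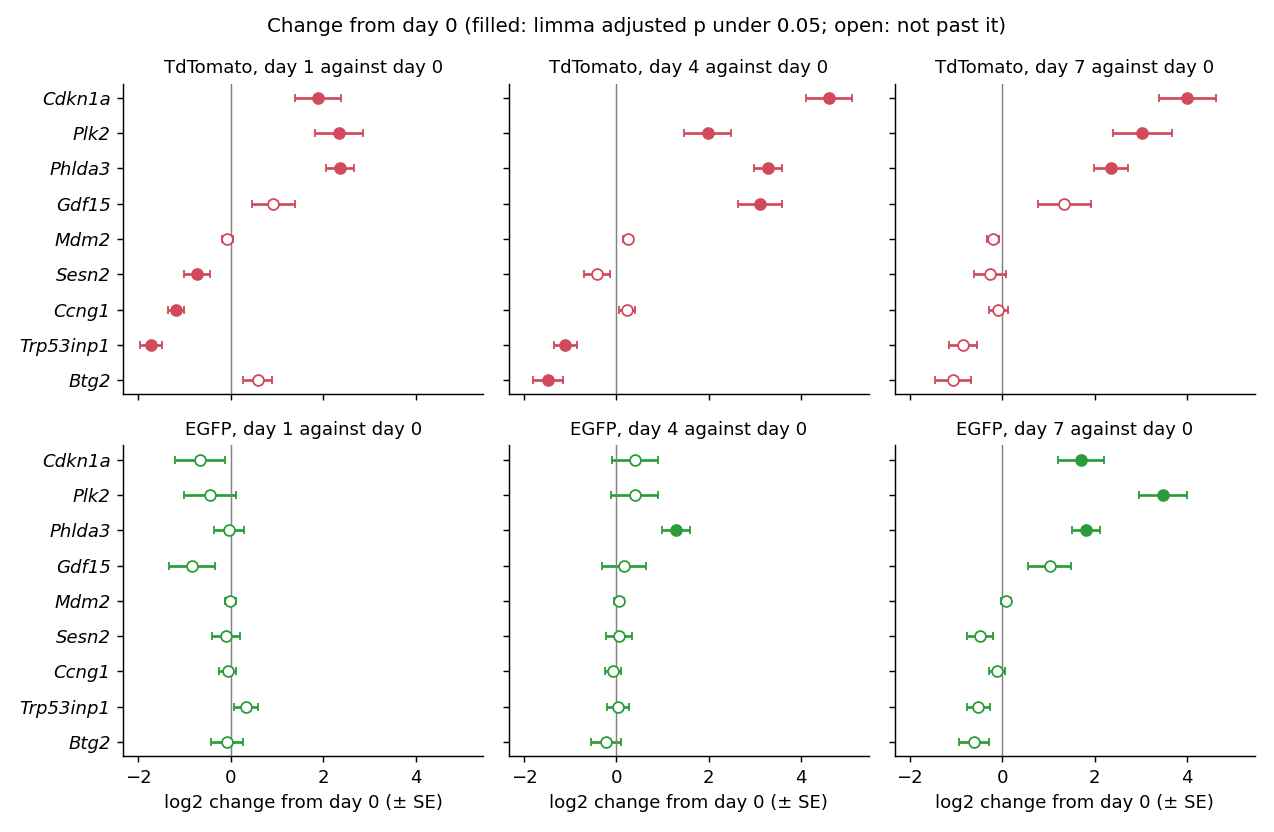
Log2 change of each member from day 0 (horizontal axis) with its standard error, genes in rows, on days 1, 4 and 7 in TdTomato cells and EGFP cells. Filled points passed the test at an adjusted p under 0.05 and open points did not. Cdkn1a in TdTomato cells on day 4 lies farthest to the right, at 4.61, and the EGFP points on day 1 are all open.

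Mdm2, which closes the feedback loop on p53, was the steadiest member. Its 29 values ran from 3.90 to 4.46, and its highest group mean was 1.37-fold above its lowest. TdTomato arrays read 4.30, 3.92, 4.15 and 4.09 on day 0 and 4.38, 4.30, 4.46 and 4.34 on day 4. The lowest day 4 array fell level with the highest day 0 array, and the difference of 0.26 ± 0.11 missed the threshold (adjusted p = 0.051). It passed under 6 of 18 alternatives, among them quantile normalization (0.48, adjusted p = 7.3e-05), slide as a block (adjusted p = 0.0083) and the mouse as a random replicate block (adjusted p = 0.044). Quantile normalization also called a small Mdm2 difference on day 1 of TdTomato cells (-0.21, adjusted p = 0.049), and normexp one on day 7 (-0.42, adjusted p = 0.032). In the fit with all groups these day 1 and day 7 differences were -0.07 (adjusted p = 0.65) and -0.19, the latter -0.17 without both MC221 arrays. The mate of Mdm2 in this loop is Ccng1, whose product, cyclin G1, recruits a phosphatase to Mdm2. Its TdTomato signal was 2.72, 2.53, 2.59 and 2.69 on day 0 and 0.84, 1.97, 1.76 and 1.20 on day 1. All 4 day 1 arrays were below every other array of the 29, and the fall was 2.28-fold (-1.19 ± 0.17, adjusted p = 3e-06). On day 4 the values were back at 2.79, 2.82, 2.92 and 2.94, a difference from day 0 of 0.23 (adjusted p = 0.25) that was 0.46 under quantile normalization (adjusted p = 0.029). EGFP values of Ccng1 lay between 2.39 and 2.91 on all days.

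Trp53inp1 encodes a stress protein that acts with p53 and in autophagy, and it fell in TdTomato cells. The values were 3.47, 3.78, 3.63 and 3.93 on day 0, then 1.14, 2.56, 2.48 and 1.73 on day 1 and 2.22, 2.68, 2.62 and 2.87 on day 4. Neither later day overlapped with day 0. The fall was 3.30-fold on day 1 (-1.72 ± 0.25, adjusted p = 2.4e-06) and 2.15-fold on day 4 (-1.10, adjusted p = 0.00058). The 2 day 7 arrays, at 3.09 and 2.62, were also below all day 0 arrays, and that difference of -0.85 missed the threshold (adjusted p = 0.051). It passed under 4 of 16 alternatives, including the mouse as a random replicate block (-0.90, adjusted p = 0.03) and the authors' deposited values (-0.96, adjusted p = 0.023), and it was -1.08 without both MC221 arrays (adjusted p = 0.09). A second probe of Trp53inp1, dimmer than the first, was also lower in TdTomato cells on days 1 and 4. On day 7 its 2 arrays, at 0.22 and 0.68, overlapped with day 0 (0.60 to 0.73), where the main probe did not. The second probe's TdTomato group means were 0.66, -1.05, -0.47 and 0.45 on days 0, 1, 4 and 7. Its EGFP means were 0.57, 0.78, 0.53 and -0.11. The main probe in EGFP cells ran from 3.41 to 3.90 on day 0 and from 3.04 to 3.37 on day 7, without overlap, yet the difference of -0.52 did not pass (adjusted p = 0.25, and -0.57 without MC221, adjusted p = 0.26).

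Sesn2, sestrin 2, restrains the growth kinase complex mTORC1 and is induced by ATF4 as well as by p53. TdTomato values were 1.98, 1.52, 2.24 and 1.19 on day 0 and 1.69, 0.37, 1.23 and 0.71 on day 1. The ranges overlapped, and the difference of -0.73 ± 0.28, a 1.66-fold fall, passed the test (adjusted p = 0.032). That call was lost under 5 of 18 alternatives: with only the groups compared (adjusted p = 0.11), without day 0 mouse MC122 (-0.65) or MC742 (-0.56), and without day 1 mouse MC541 (-0.52) or MC831 (-0.63). On days 4 and 7 the differences from day 0 were -0.42 (adjusted p = 0.21) and -0.26 (-0.34 without both MC221 arrays). In EGFP cells Sesn2 ran from 1.46 to 2.33 on day 0 and from 0.97 to 1.77 on day 7, which overlapped (-0.48, adjusted p = 0.39, and -0.63 without MC221, adjusted p = 0.27), and with slide as a block the day 7 difference was -0.61 (adjusted p = 0.03).

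Btg2 encodes an antiproliferative protein that works with the CCR4-NOT deadenylase and is also an immediate early gene. In TdTomato cells it was 6.47, 6.74, 6.86 and 6.38 on day 0, 7.17, 7.04, 7.28 and 7.27 on day 1, and 4.67, 5.04, 5.94 and 4.89 on day 4. Day 1 lay wholly above day 0 and day 4 wholly below it. The day 4 fall was 2.78-fold (-1.48 ± 0.32, adjusted p = 0.00044), whereas the day 1 difference of 0.58 did not pass (adjusted p = 0.14). It passed in the fit of only the groups compared and in the fit with slide as a block (adjusted p = 0.023 in each). On day 7 the arrays stood apart at 4.96 in MC221 and 6.13 in MC791, a difference from day 0 of -1.06 (adjusted p = 0.058) that was -0.48 without both MC221 arrays. That day 7 difference passed with normexp (-1.27, adjusted p = 0.023), with slide as a block (-0.94, adjusted p = 0.012) and without MC791 (-1.65, adjusted p = 0.031). EGFP values of Btg2 ran from 6.47 to 7.02 on day 0 and from 5.34 to 6.54 on day 7 (-0.61, adjusted p = 0.31), a difference that passed with slide as a block (-0.74, adjusted p = 0.024) and was -0.37 without MC221 (adjusted p = 0.59).

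Comparing the populations on the same day asks whether the signal differed between podocytes carrying TdTomato and the EGFP podocytes around them. Before the injection, 0 members differed, and 0.0% of all genes were called in either direction by limma (74 genes and 0 members had an unadjusted p under 0.05). On day 1, 4 members were higher in TdTomato cells and 2 were lower, with 23.7% and 25.6% of all genes called. On day 4 the member counts were again 4 and 2, with 21% and 38.6% of all genes. On day 7, Cdkn1a alone was called, as higher, against 6.19% of all genes higher and 0.8% lower. Of the genes called on day 7, 88.6% were higher in TdTomato cells, and this share was 60.4% with normexp and 66.4% with the authors' deposited values. The 1092 genes called on day 7 were 637 without both MC221 arrays, 617 without the TdTomato array of MC221 and 532 without that of MC791, of which 96.9%, 95.0% and 95.3% were higher. With the mouse as a random or fixed replicate block 3211 or 1690 genes were called on that day (50.9% and 69.2% higher), and Cdkn1a was again the one member among them. The median member difference was -0.03, 0.585, 0.23 and -0.09 on days 0, 1, 4 and 7, where the median over all genes was 0.01, -0.03, -0.33 and -0.18.

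Cdkn1a was higher in TdTomato than in EGFP cells by 2.53 on day 1 (adjusted p = 0.00035), 4.18 on day 4 (adjusted p = 2.8e-07) and 2.28 ± 0.61 on day 7 (adjusted p = 0.021). Within single mice the difference was 1.46 to 3.01 in 3 of 3 mice on day 1, 2.92 to 4.87 in 4 of 4 on day 4 and 1.95 to 2.56 in 2 of 2 on day 7. The day 7 call for Cdkn1a was lost without both MC221 arrays (2.72, adjusted p = 0.073), without TdTomato mouse MC791 (1.78, adjusted p = 0.25) and without EGFP mouse MC824 (2.19, adjusted p = 0.05). Averaging the Cdkn1a probes gave 1.40 on day 1, still called.

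Plk2 was higher in TdTomato cells by 2.76 on day 1 (adjusted p = 0.0002), with 1.97 to 3.13 within mice. Its day 4 difference of 1.55 (adjusted p = 0.013) came with overlapping ranges, though it was positive in 4 of 4 mice, from 0.81 to 2.14. The day 4 call was lost without EGFP mouse MC692 (1.18, adjusted p = 0.063), without TdTomato mouse MC822 (1.08, adjusted p = 0.073) and with only the groups compared (adjusted p = 0.069). Normexp gave 1.50 and 0.89 on these days for Plk2, both called. On day 7 the 2 mice with both populations differed by -0.11 and 0.03, on either side of 0. Phlda3 was higher by 2.41 on day 1 (adjusted p = 1.3e-06) and by 1.996 on day 4 (adjusted p = 6.6e-06), and its within-mouse difference was positive in every mouse on days 1, 4 and 7. On day 7 these differences were 0.60 and 1.08, and the group difference did not pass.

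Gdf15 was higher in TdTomato cells by 1.55 on day 1 (adjusted p = 0.013) and by 2.73 on day 4 (adjusted p = 3e-05). Its within-mouse differences were 0.35 to 2.76 on day 1, 2.37 to 3.11 on day 4 and 0.16 to 0.23 on day 7. The day 1 call for Gdf15 was lost without TdTomato mouse MC125 (1.12, adjusted p = 0.065) or MC831 (1.24, adjusted p = 0.055) and with only the groups compared (adjusted p = 0.091), and normexp lowered it to 0.87. Ccng1 was lower on day 1 (-1.25, adjusted p = 4.9e-06), with -1.62 to -0.83 within mice. Trp53inp1 was lower on day 1 (-2.07, adjusted p = 6.5e-07) and on day 4 (-1.15, adjusted p = 0.00035), and on both days it was lower in every mouse. Btg2 was lower on day 4 (-1.33, adjusted p = 0.0011), in 4 of 4 mice by -1.49 to -1.09.

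Both populations often came from 1 animal, and for several members the fits that pair them within a mouse changed the call. Sesn2 differed between populations by -0.70 on day 1 (adjusted p = 0.06) and by -0.54 on day 4 (adjusted p = 0.1). With the mouse as a fixed replicate block these were called, at -0.60 (adjusted p = 0.00079) on day 1 and at an adjusted p of 0.00047 on day 4, and the random replicate block called them too (adjusted p = 0.0025 and 0.0032). Within mice Sesn2 was lower in TdTomato cells by -0.86 to -0.46 on day 1 and by -0.59 to -0.51 on day 4. Mdm2 on day 4 (0.23, adjusted p = 0.078) passed with the fixed block (adjusted p = 0.014) and the random block (adjusted p = 0.0043), and it was higher in TdTomato cells by 0.07 to 0.35 in 4 of 4 mice. Btg2 on day 1 passed in the paired fits as well, at an adjusted p of 0.046 with the fixed block and 0.029 with the random block. Its within-mouse differences that day were 1.49 in MC125, 0.05 in MC541 and 0.14 in MC542, so 1 mouse stood far above the others, and without the EGFP array of MC125 the group difference for Btg2 was 0.12 (adjusted p = 0.81).

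**Figure D3:**
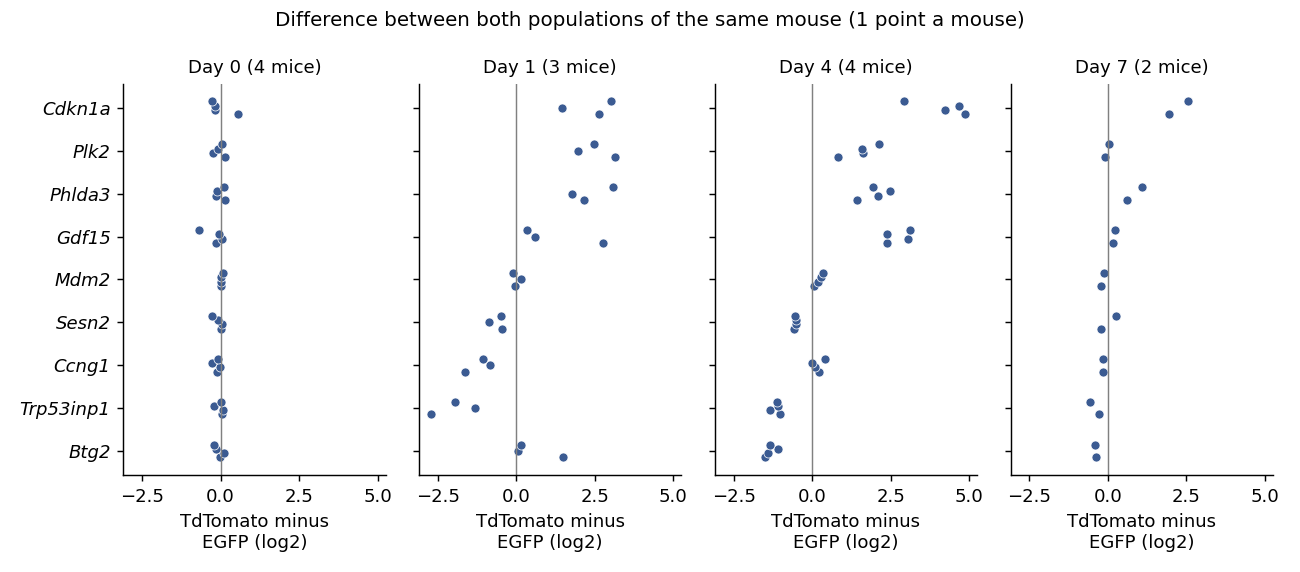
TdTomato minus EGFP log2 signal within single mice for each member, by day, with 1 point a mouse (4, 3, 4 and 2 mice on days 0, 1, 4 and 7) and a line at 0. Cdkn1a lies between 2.92 and 4.87 on day 4, and Trp53inp1 lies below 0 in every mouse on days 1 and 4.

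Whether the change from day 0 itself differed between TdTomato and EGFP cells was tested as an interaction. On day 1, 4 members had a more positive and 2 a more negative change in TdTomato cells, against 18.3% and 20.1% of all genes. For Cdkn1a the changes differed by 2.55 (adjusted p = 0.0074), for Plk2 by 2.79 (adjusted p = 0.005), for Phlda3 by 2.41 (adjusted p = 0.00014) and for Gdf15 by 1.76 (adjusted p = 0.045). They differed by -1.12 for Ccng1 (adjusted p = 0.001) and by -2.06 for Trp53inp1 (adjusted p = 8.8e-05). On day 4 the counts were 3 and 2, against 16.0% and 28.3% of all genes. Cdkn1a had the widest gap there, 4.20 (adjusted p = 7.1e-05), followed by Gdf15 at 2.94 (adjusted p = 0.0012) and Phlda3 at 1.99 (adjusted p = 0.00076), while Btg2 was at -1.26 (adjusted p = 0.027) and Trp53inp1 at -1.14 (adjusted p = 0.011). On day 7 limma called 0 members, with 2.69% of all genes called in either direction, and 1926 genes and 1 member, Cdkn1a, had an unadjusted p under 0.05. The called genes numbered 420 there, and 1464 with the mouse as a random replicate block.

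The weaker of these calls moved with the setting. The day 1 interaction of Gdf15 was lost under 14 of 26 alternatives, with adjusted p from 0.006 to 0.12, and normexp gave 0.94 (adjusted p = 0.11). Among the arrays whose removal ended it were EGFP day 0 mice MC122, MC742 and MC753, TdTomato day 0 mice MC731 and MC753, all 3 EGFP day 1 mice, TdTomato day 1 mice MC125 and MC831, and both MC221 arrays. The day 1 interaction of Cdkn1a was lost when its probes were averaged (1.27, adjusted p = 0.11), and that of Plk2 was 1.43 with normexp. The day 4 interaction of Plk2, 1.58 (adjusted p = 0.083), passed with the mouse as a random replicate block (adjusted p = 0.0021) or a fixed replicate block (adjusted p = 0.00067). Quantile normalization ended the day 4 calls of Btg2 (-0.95, adjusted p = 0.15) and Trp53inp1 (-0.86, adjusted p = 0.081). That of Btg2 also ended without TdTomato day 0 mouse MC742, TdTomato day 4 mouse MC151 or EGFP day 4 mouse MC822. On day 7 the interaction of Cdkn1a, 2.30 (adjusted p = 0.16), passed with the random replicate block (2.28, adjusted p = 0.0065) and the fixed replicate block (2.27, adjusted p = 0.042). The day 1 interaction of Sesn2 passed with the random block (adjusted p = 0.042) and the fixed block (adjusted p = 0.012), and its day 4 interaction with the fixed block (adjusted p = 0.013).

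The arrays lay on 4 slides, and the changes were also taken within slides. The rise of Cdkn1a in TdTomato cells was 0.93 to 3.27 on 4 of 4 slides on day 1, 3.79 to 5.40 on 4 of 4 on day 4 and 2.65 to 5.65 on 2 of 2 on day 7. In EGFP cells on day 7 it was 0.36 to 2.93 on 3 of 3 slides. Plk2 rose within slides by 1.43 to 3.18 on day 1 and by 1.09 to 2.85 on day 4 in TdTomato cells, and by 2.80 to 3.63 on day 7 in EGFP cells. Phlda3 within slides gave 2.12 to 2.60 on day 1 and 2.99 to 3.62 on day 4 in TdTomato cells, and 0.45 to 1.70 on day 4 in EGFP cells. For the members that fell, the within-slide differences in TdTomato cells were -1.87 to -0.57 for Ccng1 on day 1, -2.33 to -1.15 for Trp53inp1 on day 1, -1.15 to -0.29 for Sesn2 on day 1 and -1.80 to -0.92 for Btg2 on day 4. Gdf15 differed by 2.32 to 3.62 on day 4 but by -1.09 to 2.44 on day 1, with both signs.

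Cdkn1a has a second, dimmer probe, designed to another RefSeq transcript, that was above background on 9 of 29 arrays. Its TdTomato values on day 4 were -2.94, -3.60, -3.68 and -2.91, and on day 7 they were -2.08 and -1.66. On TdTomato day 0 arrays it lay between -6.88 and -5.10, and on day 1 between -6.73 and -5.25. EGFP arrays lay between -7.11 and -5.56 up to day 4. On EGFP day 7 it read -2.73 in MC221 but -6.73, -6.02 and -6.54 in the other 3 mice, so MC221 stood alone among the EGFP arrays. In the authors' deposited table the EGFP value of MC221 for this probe is -5.31, near its group, and the TdTomato value is -1.71. For the main Cdkn1a probe the authors' deposited table has 0.55 and 2.80 for MC221, where the scanner files gave 0.19 and 2.14.

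**Figure D4:**
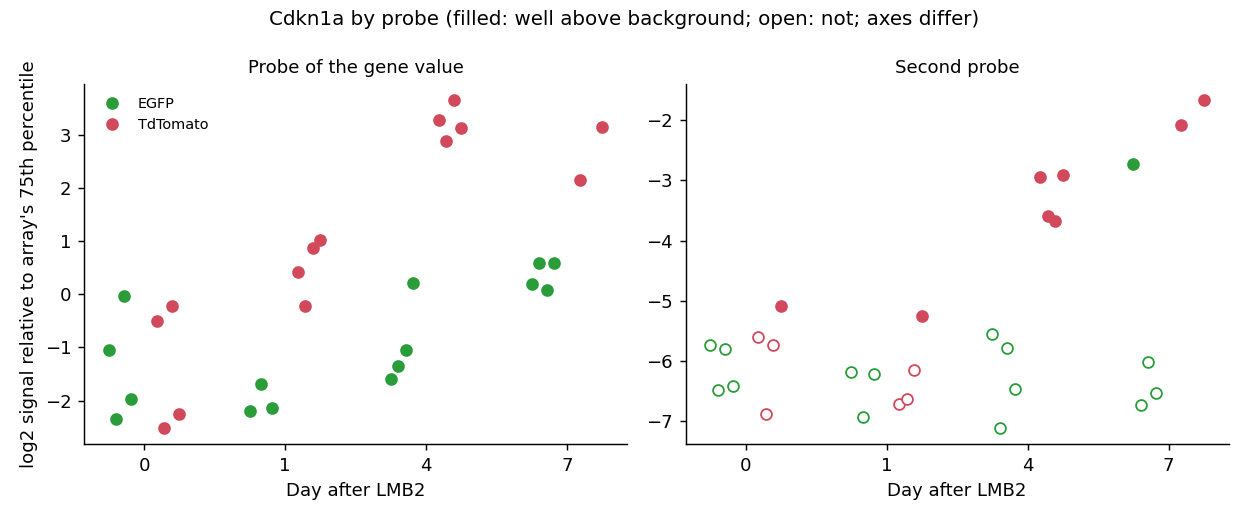
The 2 probes of Cdkn1a on each array, as log2 signal relative to the array's 75th percentile, by day and population. Filled points were well above background and open points were not. The dimmer probe is filled on the 4 TdTomato arrays of day 4, between -3.68 and -2.91, and stands at -2.73 on the EGFP array of mouse MC221 on day 7 while the other 3 EGFP day 7 arrays are at -6.02 or lower.

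The spread over the 8 groups ordered the members by how much they moved. Between its highest and lowest group mean, Cdkn1a spanned 38.0-fold, Plk2 15.2-fold, Gdf15 13.3-fold and Phlda3 10.03-fold. Their probes were also the dimmest among the members, with mean signals over all arrays of 0.04, -1.27, -1.06 and 0.81. Normexp, which shrinks changes of dim probes, was not applied to these spans. For Cdkn1a the order of the means ran from TdTomato day 4 (3.24) and TdTomato day 7 (2.64), whose arrays overlapped, down to TdTomato day 1 (0.52) and EGFP day 7 (0.36), which also overlapped. A gap without overlap separated these pairs. Plk2 was highest in EGFP cells on day 7 (0.93) and had overlapping arrays at each step of its order. Phlda3 on TdTomato day 4 (2.73) and Gdf15 on TdTomato day 4 (1.21) stood clear of the next group. So did Ccng1 at the low end, on TdTomato day 1 (1.44). The span was 4.21-fold for Trp53inp1, 4.16-fold for Btg2, 2.69-fold for Ccng1, 1.81-fold for Sesn2 and 1.37-fold for Mdm2. Over the 8 group means, Cdkn1a correlated at 0.925 with Gdf15 and 0.922 with Phlda3, Phlda3 at 0.901 with Gdf15, Trp53inp1 at 0.924 with Sesn2, and Cdkn1a at -0.779 with Btg2. These are descriptions over 8 means that share arrays and mice. Among 9779 genes compared by the same measure, the closest to Cdkn1a was Igdcc4 (r = 0.9959), to Plk2 Lhfp (0.9931), to Phlda3 Ccl5 (0.9789) and to Gdf15 Bag2 (0.9934). The closest to Mdm2 was Mapk4 (0.9089), to Ccng1 Fam126a (0.9968), to Trp53inp1 Abca9 (0.9941), to Sesn2 Bmyc (0.9837) and to Btg2 D16Ertd472e (0.9921).

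Other genes of the pathway were taken from lists of p53 regulators and further p53 targets. Of 15 regulators 14 could be tested: 6 rose and 4 fell in TdTomato cells on day 1 (42.9% and 28.6% of the list, beside 23.8% and 27.9% of all genes). On day 4, 3 rose and 5 fell (21.4% and 35.7%, near the 21.4% and 35.9% of all genes). On day 7, 1 fell (7.14%, beside 8.47% of all genes). The list's median log2 change was 0.26, 0.07 and -0.24 on these days, and none of the regulators passed in EGFP cells. Of all genes, 5.34% rose and 1.92% fell in EGFP cells on day 7, and fewer on days 1 and 4. Trp53 itself averaged -0.36 ± 0.82 (SD, n = 4) in TdTomato cells on day 0 and 1.62 ± 0.76 on day 1, a 3.94-fold rise (adjusted p = 0.0031). On day 4 its mean was -0.03 ± 1.17, with arrays from -0.98 to 1.64, which did not pass (difference from day 0 of 0.32). Trp53 had no other probe. Cdkn1a, Phlda3 and Gdf15 had their highest means on that day. The arrays measure RNA and not p53 protein, and a link between these values was not tested. Rchy1, a ubiquitin ligase of p53, rose by 2.07 on day 1 (adjusted p = 5.6e-09), and Hipk2, a kinase of p53, fell by 2.08 on day 1 and by 1.34 on day 4. On day 4 the damage kinases Atr (1.87, adjusted p = 1.1e-08) and Chek1 (1.11, adjusted p = 0.029) were higher. Atr ran from 2.74 to 3.33 already on day 1, above its day 0 range of 1.425 to 1.87. The day 4 and day 0 arrays of Chek1 overlapped, and 3 of 4 day 0 arrays were above background. Ppm1d, a phosphatase that turns p53 signalling off, was the regulator that fell on day 7 (-0.47, adjusted p = 0.035), a call lost without both MC221 arrays (adjusted p = 0.13), where Chek2, a checkpoint kinase, was called instead (3.12, adjusted p = 0.011).

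Of 36 other p53 targets 32 were tested. In TdTomato cells on day 1, 8 rose and 14 fell (25.0% and 43.8%, beside 23.8% and 27.9% of all genes). On day 4, 7 rose and 14 fell (21.9% and 43.8%, beside 21.4% and 35.9%), and on day 7, 3 rose and 6 fell (9.38% and 18.8%, beside 10.9% and 8.47%). The shares of risers were thus near those of all genes. Without both MC221 arrays the day 7 counts were 2 and 2. Their median change was -0.68, -0.36 and -0.40, below the medians over all genes given above. The death receptor Fas rose 48.5-fold on day 1 (5.60 ± 0.36, adjusted p = 1.3e-11) and was still up by 2.80 on day 4 and 2.62 on day 7 (3.38 without MC221). Pmaip1, which encodes the cell-death protein Noxa, rose by 3.92 on day 1 and 2.08 on day 4. The death receptor Tnfrsf10b rose by 3.31 on day 4 and 1.58 on day 7. Its TdTomato arrays ran from 0.24 to 1.92 already on day 1, above their day 0 range of -1.12 to -0.89. Among targets with lower TdTomato means on day 4 than on day 0, Bbc3 was at 1.57 against 2.83. Sesn1 was at 1.61 against 2.42, and Gadd45a at 4.51 against 5.54. Ak1, adenylate kinase, fell by 2.52 on day 1, and Apaf1, which builds the apoptosome, fell by 1.04 on day 7, a call lost without both MC221 arrays (adjusted p = 0.17). In EGFP cells none of these targets passed on day 1 or day 4, when few genes did. Of all genes 0.0256% were called on day 1, and 0.557% rose and 0.0384% fell on day 4. On day 7, 3 targets rose and 2 fell (9.38% and 6.25%, beside 5.34% and 1.92% of all genes). Among these, Fas rose by 2.04 (adjusted p = 0.00044), the cell-death and adhesion gene Perp by 1.40 (adjusted p = 3.5e-05), and the mTORC1 inhibitor Ddit4 fell by 1.18 (adjusted p = 0.0079).

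Gdf15 and Sesn2 are also known targets of ATF4, and Plk2 and Btg2 are also counted as immediate early genes, so these groups were set beside them. Of 15 ATF4 targets 13 were tested. In TdTomato cells 1 rose and 2 fell on day 1 (7.69% and 15.4%, beside 23.8% and 27.9% of all genes). On day 4, 5 rose and 2 fell (38.5% and 15.4%, beside 21.4% and 35.9%), and on day 7 again 5 and 2, beside 10.9% and 8.47%. Without both MC221 arrays the day 7 counts were 2 and 1. Ddit3, the stress factor CHOP, rose by 1.96 on day 1, when Trib3 fell by 2.24, and on day 7 the serine synthesis genes Psat1 and Phgdh were up by 3.85 and 2.10. Without MC221 these day 7 values were 3.84 for Psat1 and 1.86 for Phgdh. In EGFP cells 4 ATF4 targets rose and none fell on day 7 (30.8%, beside 5.34% of all genes), led by Psat1 at 4.36 (adjusted p = 1e-11) and Chac1 at 3.11 (adjusted p = 0.00021). All 16 immediate early genes were tested: 4 rose and 4 fell in TdTomato cells on day 1 (25.0% each, close to the 23.8% and 27.9% of all genes). The counts were 2 and 8 on day 4 (12.5% and 50%, beside 21.4% and 35.9%) and 2 and 3 on day 7 (12.5% and 18.8%, beside 10.9% and 8.47%), or 2 and 0 on day 7 without both MC221 arrays. Myc was above background on 0 of 4 TdTomato arrays on day 0 and was at least 36.4-fold higher on day 1, at least 15.1-fold on day 4 and at least 6.42-fold on day 7, each measured against the dimmest signal called above background. Fosl1 rose by 1.82, 2.79 and 2.46 on these days, and Ier3 rose by 1.51 on day 1. The change of Junb was -1.56 on day 4 (adjusted p = 0.014). For Ier2 the day 7 change was -1.52, and it was -0.82 without both MC221 arrays. In EGFP cells on day 7, Myc was at least 4.66-fold higher and Fosl1 rose by 2.75. No immediate early gene fell there, where 1.92% of all genes did.

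Cdkn1a acts on the cell cycle, so 17 of 20 cell cycle genes that passed the filter were read alongside it. In TdTomato cells 3 rose and 8 fell on day 1 (17.6% and 47.1%, beside 23.8% and 27.9% of all genes). On day 4, 8 rose and 1 fell (47.1% and 5.88%, beside 21.4% and 35.9%), and on day 7, 4 rose and none fell (23.5%, beside 10.9%), or 2 and none without both MC221 arrays. Birc5, which encodes survivin, rose by 3.92 on day 1, 8.53 on day 4 and 3.91 on day 7. Cyclin A2, Ccna2, rose by 4.00 on day 1, 5.25 on day 4 and 2.53 on day 7 (2.33 without MC221, adjusted p = 0.052), and Rrm2, a subunit of ribonucleotide reductase, by 4.11 on day 4. Each of these last pair was above background on 3 of 4 TdTomato arrays on day 0. The replication helicase gene Mcm5 fell by 2.06 on day 1. In EGFP cells Birc5 rose by 1.84 on day 4 and 1.20 on day 7, and Mcm6 rose by 0.84 on day 7. The other 2 probes of Birc5 changed by -0.03 and 0.66 on day 7, so 1 of them had the same sign.

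**Figure D5:**
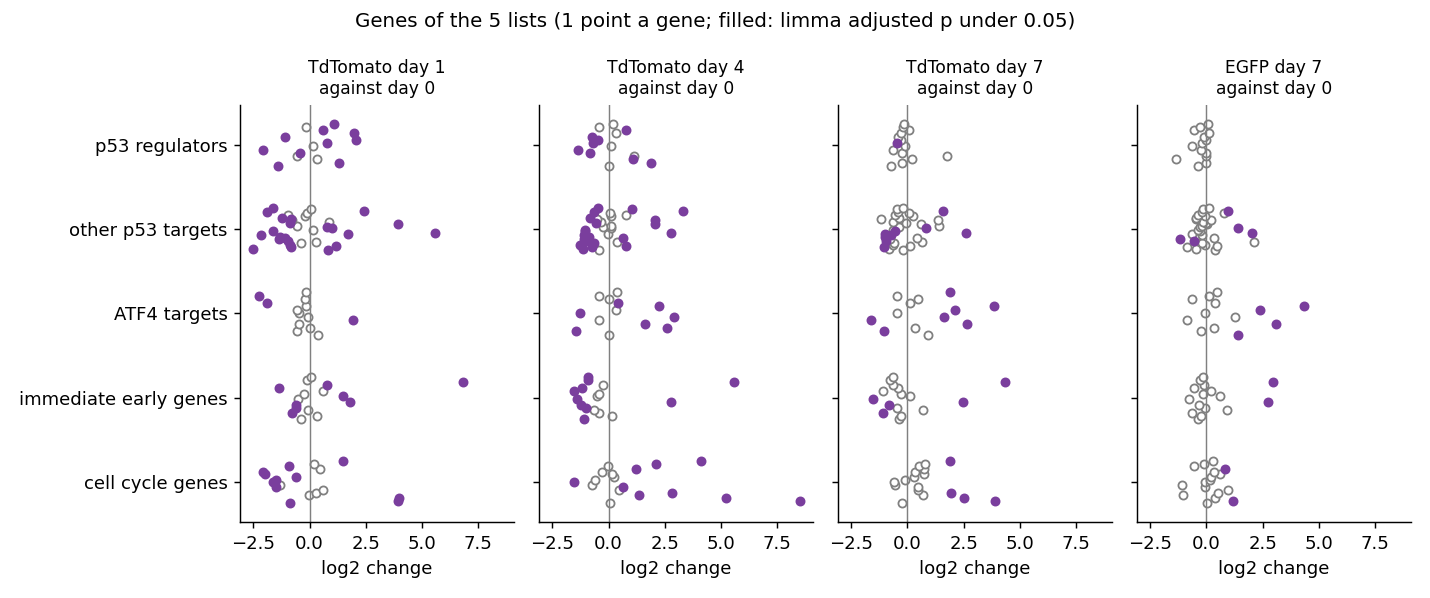
Log2 change from day 0 of each tested gene of the 5 lists (p53 regulators, other p53 targets, ATF4 targets, immediate early genes and cell cycle genes) in TdTomato cells on days 1, 4 and 7 and EGFP cells on day 7. Filled points passed the test at an adjusted p under 0.05, and open points did not. Fas is the highest of the other p53 targets in TdTomato cells on day 1, at 5.60, and Birc5 is the highest cell cycle gene on day 4, at 8.53.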

How the data were processed

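The spot intensity was deposited as Feature Extraction output, version 11.5.1.1 per the file headers. Per the labels' protocols, 0.1 µg RNA was labelled with Cy3 (Low Input Quick Amp). The authors also deposited a table of log2 values, of unstated scaling, which served as an alternative. From the processed signal, log2 was taken and the array's 75th percentile subtracted, control and non-uniform or outlier spots were left out, and probes well above background on at least 3 of 29 arrays were kept. Probes were named by RefSeq accession, and the brightest probe of a gene gave 15626 genes with 50 missing values.

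limma 3.58.1 in R 4.3.3 fitted 8 group means to all 29 arrays and 13 comparisons, with Benjamini-Hochberg adjustment over all genes at 0.05. Limma pools the spread over groups, so that a pair of arrays can be tested. The script was tested on simulated data. Changes are differences of log2 group means with the fit's standard error. Figures were drawn with matplotlib 3.10.9, and tables with pandas 2.3.3 and numpy 2.4.6 under Python 3.11.15.

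The populations were paired by mouse number (13 pairs from the same animals). Deviations of the pairs from their group means correlated at 0.041 to 0.636, and the consensus correlation within mice was 0.596. Alternatives were normexp with offset 50 on the median signal (the files hold no mean signal), quantile normalization, no filter (20145 genes) or a stricter one (14215 genes), the mean of a gene's probes, the authors' log2 values, only the groups compared, slide or mouse as a block, both MC221 arrays left out, and each array left out. Counting the lists and markers without both MC221 arrays was chosen after seeing the data. The members and the gene lists were chosen with earlier results of these data known. Of each list up to 3 called genes were picked per comparison, the largest changes first, and not all of those picked are named in the text. Bbc3, Sesn1 and Gadd45a were named outside this rule. For likeness, genes were ranked by Pearson's r over the 8 group means, among 9779 genes above background in a whole group and spanning at least 1 log2 unit. Myc, below background on all day 0 arrays, has a lower bound in place of a fold. The number of arrays limits the precision.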

Additional observations from a re-analysis of the deposited data

Results flagged for a closer look

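In TdTomato cells on day 1, Phlda3 in mouse MC541 was at 0.94 where the group median was 2.07, and its distance from the nearest array was 0.884 of the group's range, above Dixon's critical value for 4 arrays. It was the only such value among 66 sets of arrays tested, and chance alone gives about 1 in 20.

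The change from day 0 differed between TdTomato and EGFP cells by limma's interaction test in 11 cases. Of all genes, 18.3% had a more positive and 20.1% a more negative change in TdTomato cells on day 1. The shares of all genes on day 4 were 16.0% and 28.3%. On day 1 the differences were 2.55 for Cdkn1a (adjusted p = 0.0074), 2.79 for Plk2 (adjusted p = 0.005), 2.41 for Phlda3 (adjusted p = 0.00014) and 1.76 for Gdf15 (adjusted p = 0.045). They were -1.12 for Ccng1 (adjusted p = 0.001) and -2.06 for Trp53inp1 (adjusted p = 8.8e-05). On day 4 they were 4.20 for Cdkn1a (adjusted p = 7.1e-05), 1.99 for Phlda3 (adjusted p = 0.00076), 2.94 for Gdf15 (adjusted p = 0.0012), -1.14 for Trp53inp1 (adjusted p = 0.011) and -1.26 for Btg2 (adjusted p = 0.027). The day 1 call of Gdf15 was lost under 14 of 26 alternatives, and the day 4 call of Btg2 under 4 of 27. The day 1 call of Cdkn1a and the day 4 call of Trp53inp1 were each lost under 1.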

How the results depend on the processing

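No comparison of a member reversed its direction while called. Counts of called members moved by over 1.5 times as follows. Normexp gave 5 in TdTomato cells on day 7 (3 in the text), 0 in EGFP cells on day 4 (1 in the text) and 2 between populations on day 7 (1 in the text). Slide as a block gave 5 in TdTomato cells on day 7 and 5 in EGFP cells on day 7 (3 in the text). The EGFP day 4 count was 0 with no filter, with only the groups compared, with the mouse as a random replicate block and without both MC221 arrays, and 0 to 1 when single arrays were left out. Between populations on day 7 it was 0 without both MC221 arrays and 0 to 1 without single arrays. The day 7 interaction count was 1 in place of 0 with the mean of probes and with the mouse as a random or fixed replicate block. Over all genes, normexp moved the median from -0.135 to -0.02 in TdTomato cells on day 7, from -0.331 to -0.23 and from -0.182 to -0.082 between populations on days 4 and 7, and from -0.077 to -0.194 and from -0.19 to -0.085 in the interactions on days 1 and 7. Paired fits changed no member's call other than those printed in the text. Smaller moves were 8 in place of 6 in TdTomato cells and between populations on day 4 with quantile normalization and with slide as a block, 8 in place of 6 between populations on days 1 and 4 with either mouse block (and on day 1 with slide as a block), and 2 in place of 3 in EGFP cells on day 7 under 9 of 18 alternatives. The other settings moved a count by at most 2. The causes were not tested. With 2 TdTomato arrays on day 7, that day's spread is assumed from the other groups.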
